A study of Mus musculus with 18 samples.

Results

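The addition labelled mito on a soft matrix was followed over all genes in 6 of the 18 libraries of the series, the 3 of the group Soft+mito and the 3 of the group Soft. The columns were chosen by the labels alone, so no measured value entered the choice. Of the 18397 genes in the deposited table, 12245 passed the filter on low counts and were tested. Soft+mito is the set of cells on the soft matrix that received the addition, and Soft is the set on the same matrix without it. Both groups share the cells, labelled RAW264.7 (a mouse macrophage line), the soft matrix and the RNA protocol. The other groups are Stiff+mito, Stiff, Soft-TW and Stiff-TW, with 3 libraries each, and of these only Stiff+mito and Stiff were used, to set the soft response beside the stiff one. The labels spell out neither mito nor TW and give no stiffness, dose or time, and the title of the series names the transfer of mitochondria as its subject. The labels call the libraries biosamples and do not state separate cultures, so a p-value here measures the spread between libraries only, and that spread may be technical.

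Mitochondria make most of the ATP of a resting cell through the respiratory complexes, whose subunits are encoded in part by the mitochondrial and mostly by the nuclear genome. Cells that meet a new stimulus first switch on immediate early genes, among them the AP-1 transcription factors of the Fos and Jun families, without needing new protein, and these genes are quickly shut off again by feedback inhibitors such as the Dusp phosphatases. Disturbed mitochondria, lack of amino acids or misfolded protein act through the integrated stress response, in which the transcription factor Atf4 raises genes for amino acid synthesis, import and tRNA charging.

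The 6 libraries held 16346260 to 16887244 estimated counts each, with 11788 to 11850 genes at 10 counts or more in each. A count of 0 allows up to 3 counts (counting error alone), which were 0.101 to 0.112 TPM (a level of transcripts set per length and depth) for the median gene. The table held 0 genes of the mitochondrial chromosome, so transcripts of mitochondrial DNA were not analysed here. The defining macrophage markers were at or near 0 in these libraries, against the label: the macrophage marker Adgre1 had 0 counts in all 6, and the macrophage growth factor receptor Csf1r had 0.15, 0.10 and 0.35 TPM in Soft+mito and 0.03, 0.08 and 0.05 TPM in Soft. The cells are therefore called by their group names here. The summed level of 24 macrophage markers was 54.3 to 61.1 TPM in Soft+mito and 41.7 to 43.5 TPM in Soft, of which the larger share was Cd14. The summed level of 16 epithelial markers was 1032 to 1045 TPM in Soft+mito and 1000 to 1030 TPM in Soft, nearly all of it from the keratin genes Krt8 and Krt18. Other epithelial markers, such as Epcam and Cdh1, were at or near 0. The largest sum was that of 14 fibroblast and mesenchymal markers, at 15360 to 15680 TPM in Soft+mito and 14320 to 14740 TPM in Soft. Nearly all of it came from S100a4 and Vim, and other markers of that list, such as Lum and Thy1, were at or near 0. In bulk RNA, fewer cells of a type and less RNA per cell cannot be told apart.

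Most of the response was small in size. Of the 12245 genes tested, 3273 (26.7%) changed in Soft+mito against Soft (edgeR's quasi-likelihood test, Benjamini-Hochberg adjusted p under 0.05), with 1817 (14.8%) higher and 1456 (11.9%) lower. The median absolute log2 fold change among these was 0.17, and 75.8% of them moved by under 20%. A change of at least 2-fold was called for 71 genes (0.58%), with 36 (0.294%) higher and 35 (0.286%) lower, of which 16 higher and 6 lower genes averaged at least 5 CPM (counts set per library size after TMM scaling). All Soft+mito libraries lay on one side of all Soft libraries for 4601 (37.6%) of the genes tested and for 3040 of the 3273 changed. With scaling to library totals in place of TMM, 1241 genes were higher and 2000 lower, so that 38.3% of the changed genes were higher against 55.5% with TMM. 

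Log2 fold changes below are differences of TMM-scaled counts, with their standard error and 3 libraries a group. Counts of list members are to be read beside the 14.8% higher and 11.9% lower of all genes tested. TPM sets levels per length, and its ratios lay a median of 0.094 (log2) below the fitted changes over the 10999 genes above 1 TPM in both groups. For changes below about 0.3 the values are therefore given as CPM.

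Direction moved with transcript length across the whole table. Length here, also called gene length, is the estimated counts of a gene over its TPM, each summed over the 6 libraries. It is thus a relative length implied by the deposited values and was not taken from an annotation. In 5 equal classes of genes by length, the median log2 fold change was 0.089 in the shortest class, then 0.030, 0.0039 and -0.018, and -0.051 in the longest. In the shortest class 29.1% of genes were higher and 2.04% lower, against 5.35% higher and 23.1% lower in the longest. The Spearman correlation between length and change was -0.33 over 12244 genes in the soft comparison and -0.045 in the stiff one, a description across genes that share their libraries. Counts of list members that hold with gene length fitted as an offset are given beside the small changes, and the part of length in the other results was not tested.

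**Figure D1:**
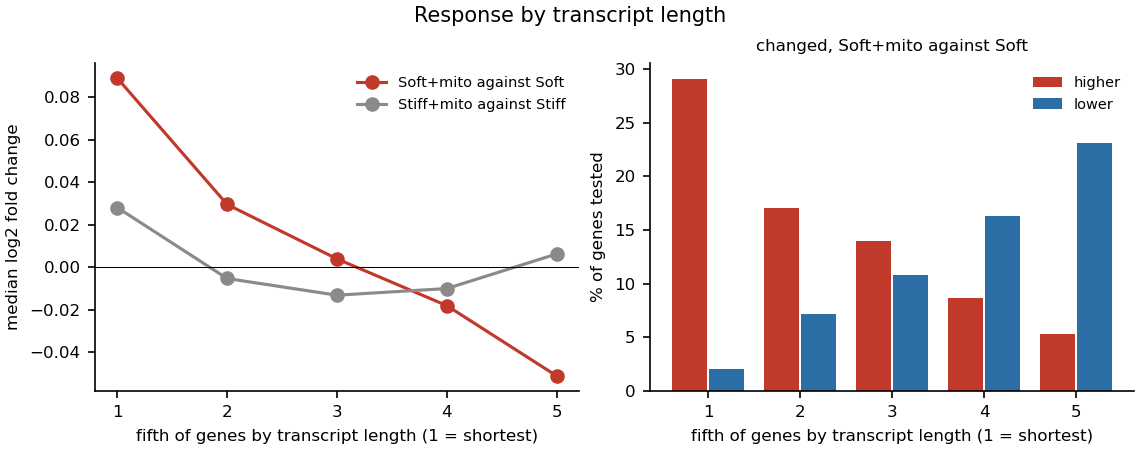
Median log2 fold change (Soft+mito against Soft in red, Stiff+mito against Stiff in grey) in 5 equal length classes of the tested genes from short to long, and the percent of genes higher (red) and lower (blue) in Soft+mito in each class. The soft medians run from 0.089 in the shortest class to -0.051 in the longest, and the stiff medians stay between -0.013 and 0.028.

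Among genes of at least 5 CPM, the immediate early transcription factors Fos and Fosb rose most. Fos, an AP-1 subunit and the cellular form of a viral oncogene, had 133, 127 and 124 TPM in Soft+mito, against 2.37, 3.77 and 2.48 TPM in Soft. The rise of Fos was 5.56 ± 0.064 on the log2 scale (SE, n = 3 each; edgeR's quasi-likelihood test, adjusted p = 7.40e-95). Fosb, its close paralog, had 87.8, 85.7 and 75.0 TPM in Soft+mito, against 5.00, 4.27 and 4.44 TPM in Soft. The rise of Fosb was 4.30 ± 0.054 (adjusted p = 2.64e-56, same test). In Soft+mito both genes were thus at levels near those of Jun, whose libraries had 92.8, 94.4 and 89.7 TPM in Soft+mito and 43.1, 45.7 and 44.6 TPM in Soft. Jun, the partner of Fos in the AP-1 dimer, rose by 1.15 ± 0.031 and Junb by 1.00 ± 0.034. No library of one group reached a library of the other for any of these 4 genes, which the rule that chose Fos, Fosb and Jun requires. The same held for 37.6% of all genes tested. Fos lies at chr12:85473890-85477274 and Fosb at chr7:19302696-19310118 (GRCm38.p6).

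Of the 11 AP-1 subunits, all tested, 9 were higher and 1 was lower, with a median log2 fold change of 0.47 against 0.0073 over all genes tested. Smaller rises were those of Atf3 (0.76), Jund (0.47), Maff (0.42) and Fosl1 (0.28), and Fosl2 was the subunit that fell (-0.13 ± 0.028). Fosl1 was already abundant, with 172, 166 and 169 CPM in Soft+mito and 139, 138 and 141 CPM in Soft. Fos and Fosb, the subunits that rose most, were thus weakly expressed in Soft, while the change of the abundant Fosl1 was smaller.

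The division of Fosb counts between its transcripts is given as a description. The table holds 2 Fosb transcripts, and the share of Fosb counts given to the first was 87.8%, 84.2% and 86.6% in Soft+mito, against 44.5%, 52.0% and 45.4% in Soft. These shares rest on 150 to 171 Fosb counts per library in Soft. The mean difference was 38.9 percentage points, and the exact permutation test gave a two-sided p of 0.1, the smallest that 3 against 3 libraries allow. On the stiff matrix the same share was 83.4%, 84.4% and 83.7% in Stiff+mito and 90.9%, 83.0% and 71.1% in Stiff, which overlap (difference 2.15 points, exact permutation p = 0.7). Whether the share differed between the matrices in its response was not tested. The sources used here do not state how counts were divided between the transcripts.

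**Figure D2:**
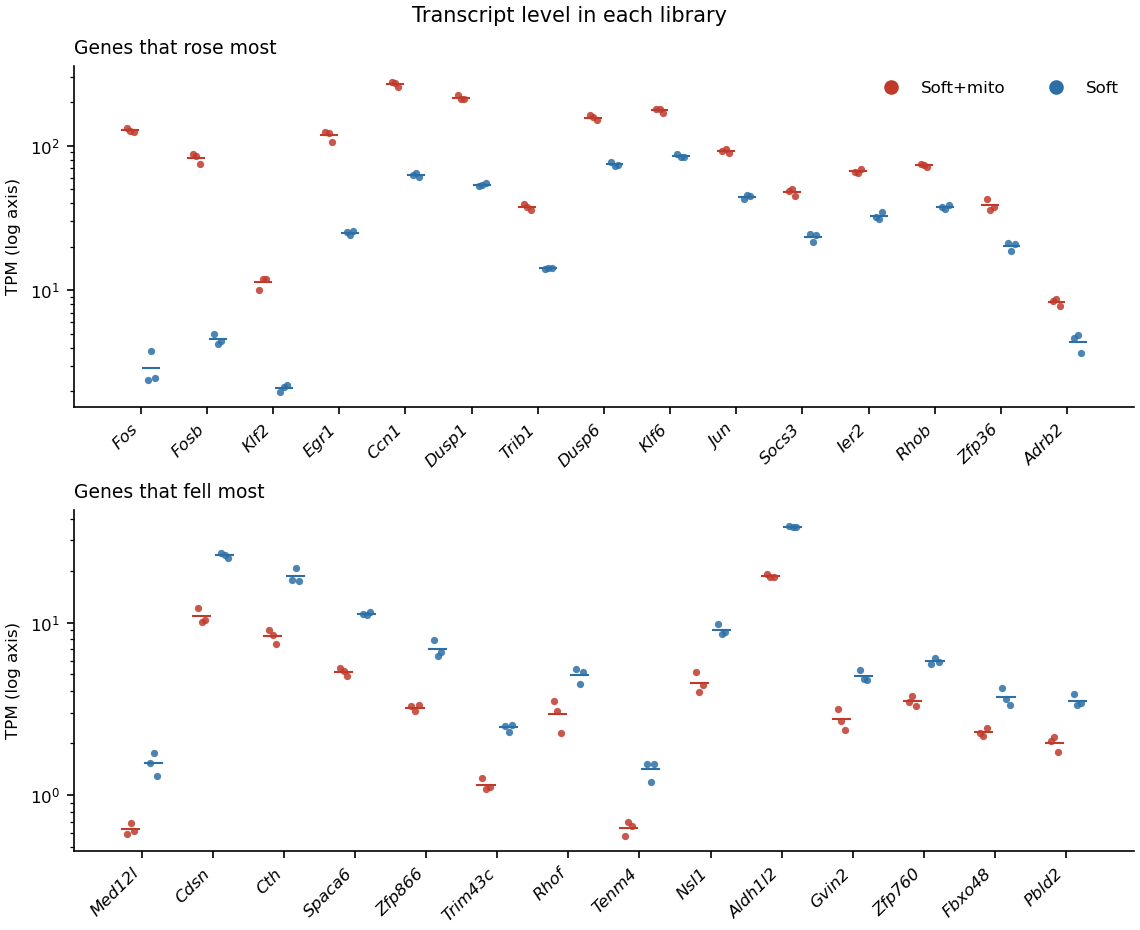
TPM in each library (log axis) of the 15 genes with the largest rise and 14 of the 15 with the largest fall, Soft+mito in red on the left and Soft in blue on the right of each gene, with a line at each mean. The groups stand apart for every gene shown, as the rule that chose them requires, and Fos and Fosb are the widest apart.

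Many regulators known as early genes, zinc finger factors among them, rose as well. The labels give no time, so no order of these changes was seen. Klf2, a factor known for quieting inflammatory genes in macrophages and endothelium, had 10.1, 12.0 and 12.0 TPM in Soft+mito, against 1.98, 2.12 and 2.19 TPM in Soft, a log2 rise of 2.53 ± 0.14 (adjusted p = 1.05e-31, edgeR's quasi-likelihood test). Egr1, the early growth response factor, had 125, 122 and 107 TPM in Soft+mito, against 25.4, 24.1 and 25.6 TPM in Soft, a rise of 2.33 ± 0.051. Klf6 rose by 1.15, Ier2 by 1.12 and Klf4, one of the pluripotency factors, by 0.74. Of the 33 tested genes of the Egr, Klf, Nr4a and Ier list of 34, 23 were higher and 0 lower, with a median of 0.33. With gene length as an offset the count stayed at 23, and with library totals it was 21. The nuclear receptor Nr4a1, another early gene, did not pass the test, with 15.5, 16.1 and 15.1 CPM in Soft+mito and 16.0, 17.2 and 15.2 CPM in Soft. Myc, the growth regulator, rose by 0.33 ± 0.029, and the inhibitors of helix-loop-helix factors Id1, Id2 and Id3 by 0.57, 0.56 and 0.25.

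Feedback inhibitors known to shut off early genes rose in part. Dusp1, the phosphatase that inactivates p38 and JNK, had 224, 212 and 209 TPM in Soft+mito, against 52.5, 54.0 and 55.1 TPM in Soft, a rise of 2.09 ± 0.033 (adjusted p = 7.64e-82, edgeR's quasi-likelihood test). Dusp6, the phosphatase of ERK, had 162, 158 and 150 TPM in Soft+mito and 77.5, 73.0 and 74.2 TPM in Soft, a rise of 1.16 ± 0.027. No Soft+mito library of either phosphatase reached down to a Soft library, as the rule that chose both genes requires. Zfp36, which speeds the decay of early and cytokine transcripts, rose by 1.04 ± 0.062, and Trib1, a pseudokinase that steers protein degradation, by 1.51 ± 0.043. Socs3, the feedback inhibitor of cytokine receptors, rose by 1.13 ± 0.043. Of the 16 tested MAP kinase feedback inhibitors of 17, 7 were higher and 1 was lower (median 0.13), with smaller rises of Dusp5 (0.56), the ERK pathway inhibitor Spry2 (0.45) and the EGF receptor inhibitor Errfi1 (0.24).

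Promoters of the early genes are shown because the factors above act through known short motifs. Of the 15 genes with the largest rise, 11 matched a RefSeq promoter (250 bases before to 50 after the start, GRCm38.p6), and both strands were searched. The cAMP response element TGACGTCA was in 1 of the 11, Dusp1, against 3.56% of the 9751 tested genes with a promoter. The CArG box, bound by the serum response factor, was in 1, Zfp36, against 1.55%. The Egr motif GCGNGGGCG was in 4, Fosb, Klf2, Socs3 and Zfp36, against 11.8%, and the AP-1 motif TGANTCA was in 0, against 6.57%. The HRE core ACGTG was in 2, against 29.1%. A match is only a match of letters in this window. In the 3 windows below, each upstream of the annotated gene, capitals mark the match.
Dusp1, chr17:26508593-26508630, minus strand: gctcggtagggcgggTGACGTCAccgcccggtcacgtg
Zfp36, chr7:28379262-28379301, minus strand: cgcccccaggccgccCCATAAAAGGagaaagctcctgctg
Klf2, chr8:72318848-72318886, plus strand: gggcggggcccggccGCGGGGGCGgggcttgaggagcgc

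Ligands and inflammatory mediators rose in part. Ptgs2, the inducible enzyme of prostaglandin synthesis, had 530, 533 and 518 TPM in Soft+mito, against 323, 305 and 305 TPM in Soft, a rise of 0.86 ± 0.020 (adjusted p = 2.30e-63, edgeR's quasi-likelihood test). Ereg and Hbegf, which encode ligands of the EGF receptor, rose by 0.73 ± 0.026 and 0.70 ± 0.052. Cxcl1, a chemokine for neutrophils, had 123, 115 and 116 TPM in Soft+mito and 71.6, 67.4 and 71.3 TPM in Soft, a rise of 0.84 ± 0.051. None of these 4 genes had overlapping libraries, which also held for 37.6% of all genes tested. Of the 28 tested genes for EGF receptor ligands and growth factors of 32, 7 were higher and 0 lower (median 0.071). Of the 42 tested genes of the NF-kB, chemokine and cytokine list of 51, 11 were higher and 1 was lower (median 0.076). Nfkbiz, a nuclear IkB protein, was among the higher ones (0.81 ± 0.051), and Il1rl1, the receptor of interleukin 33, was the lower one (-0.57). The largest part of both lists did not pass the test. The Il6, Lif and Socs list of 14 tested genes had 2 higher and 3 lower members (median -0.012), or 1 to 3 lower with 1 library left out.

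Of the genes tied to mechanical signalling, Ccn1, a secreted matrix protein and a classical target of YAP, TAZ and the serum response factor, stood out in size. It had 278, 273 and 256 TPM in Soft+mito, against 62.7, 65.4 and 60.8 TPM in Soft, a rise of 2.19 ± 0.029 (adjusted p = 4.29e-89, edgeR's quasi-likelihood test). The rest of the YAP and TAZ list did not follow: 5 of 20 tested genes were higher and 2 lower, with a median of -0.010. The other higher members moved little, such as Lats2, a kinase that restrains YAP (0.20), Wwc1 (0.22) and Amotl2 (0.17). The serum response factor gene Srf rose by 0.29, and of 19 tested Srf, actin and contractile genes 5 were higher and 4 lower (median 0.023).

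The genes that the description of the series names were read one by one. Ddr2, a receptor for fibrillar collagen (chr1:169972307-170110836), had 29.3, 27.6 and 25.9 TPM in Soft+mito, against 43.5, 40.6 and 42.2 TPM in Soft. Ddr2 fell by 0.51 on the log2 scale (SE 0.027, adjusted p = 8.88e-33, edgeR's quasi-likelihood test). Its libraries did not overlap, as for 37.6% of all genes tested. Ptk2, which encodes focal adhesion kinase, had 168, 177 and 170 CPM in Soft+mito and 163, 164 and 161 CPM in Soft (0.083 ± 0.027, adjusted p = 0.0146). Ptk2 no longer passed without Soft+mito replicate 2 (adjusted p = 0.138), without Soft replicate 3 (0.0584), with library totals (0.132) or with DESeq2 (0.0621). Tiam1, which loads Rac with GTP, had 1, 4 and 4 counts in Soft+mito and 5, 7 and 6 counts in Soft, with an adjusted p of 0.200 in the same test, so at these counts no difference was detectable.

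Rhoa, the GTPase of stress fibres, had 481, 490 and 495 CPM in Soft+mito, against 442, 456 and 453 CPM in Soft (0.12 ± 0.021, adjusted p = 2.38e-06, edgeR's quasi-likelihood test). Rac1, the GTPase of lamellipodia, had 495, 497 and 506 CPM in Soft+mito and 462, 454 and 461 CPM in Soft (0.12 ± 0.021, adjusted p = 1.16e-06). These transcript levels say nothing of the activity of the GTPases. Larger was the rise of Rhob, a GTPase gene known to be induced as an early gene, with 74.6, 74.1 and 71.5 TPM in Soft+mito and 37.6, 36.8 and 39.1 TPM in Soft (1.05 ± 0.039). Rhof, which encodes a GTPase of filopodia, was among the 15 genes with the largest fall (-0.99 ± 0.080). Of 26 tested collagen receptors, integrins and focal adhesion genes 7 were higher and 3 lower (median 0.011), or 3 higher without Soft+mito replicate 2 or Soft replicate 3.

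**Figure D3:**
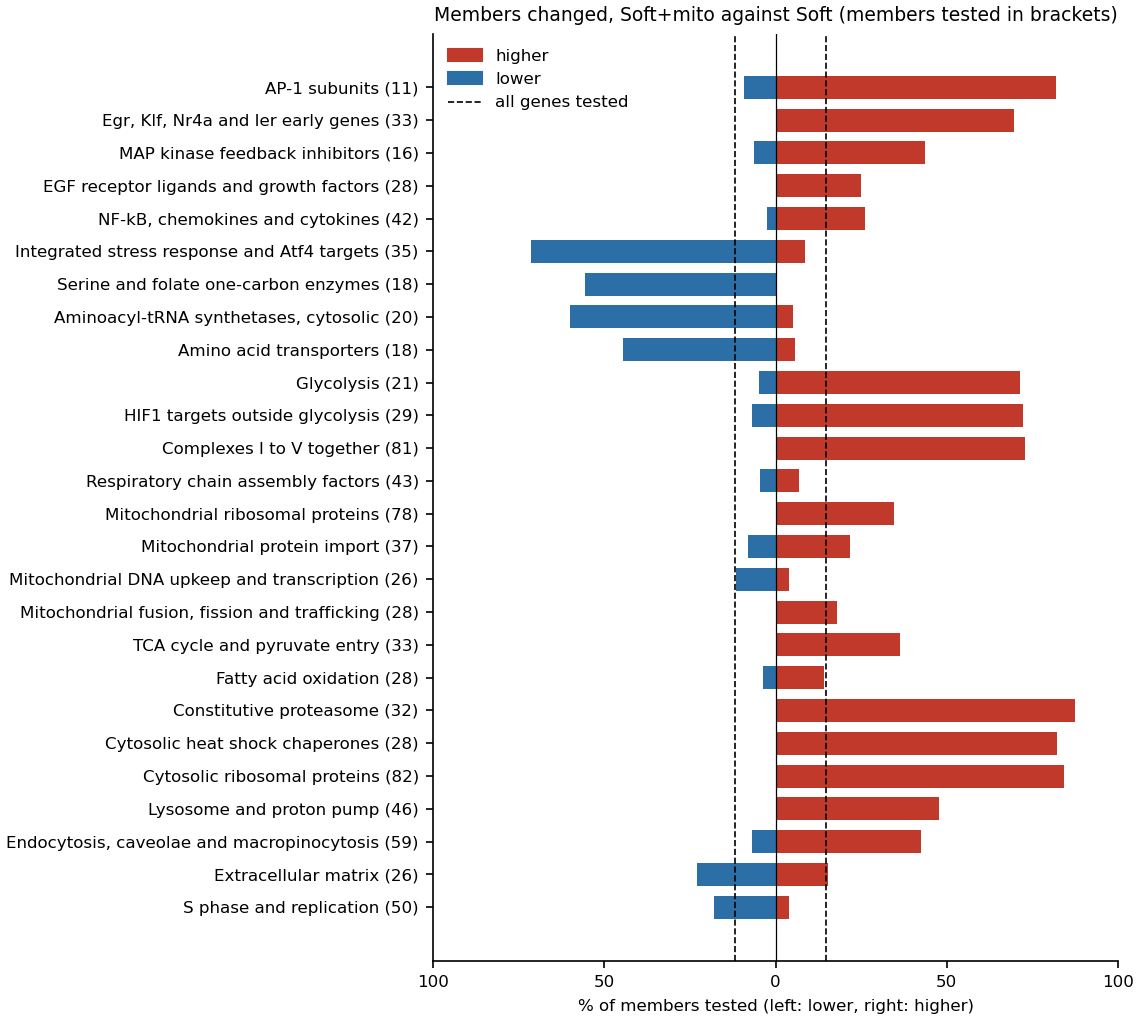
Percent of the tested members of 26 gene lists that were higher (red, to the right) or lower (blue, to the left) in Soft+mito than in Soft, with dashed lines at the 14.8% and 11.9% of all genes tested. The stress response, serine and tRNA synthetase lists lie to the left, and the proteasome, ribosomal, heat shock and respiratory lists to the right.

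Genes of the integrated stress response fell. Of the 35 tested members of 38, 25 were lower and 3 higher, with a median of -0.30 against 0.0073 over all genes tested, and with length as an offset the counts were again 25 and 3. Trib3, the pseudokinase induced by Atf4 and Chop, had 58.4, 57.6 and 56.4 TPM in Soft+mito, against 96.3, 98.2 and 91.6 TPM in Soft, and fell by 0.64 (SE 0.034, adjusted p = 4.46e-32, edgeR's quasi-likelihood test). Psph, the last enzyme of serine synthesis, had 51.2, 51.8 and 53.5 TPM in Soft+mito and 86.4, 92.1 and 89.3 TPM in Soft, and fell by 0.66. Pck2, the mitochondrial phosphoenolpyruvate carboxykinase, had 29.7, 28.8 and 28.6 TPM in Soft+mito and 46.2, 46.1 and 47.3 TPM in Soft, and fell by 0.59. For all 3 the groups stood apart, as for 37.6% of all genes tested, and the libraries within a group lay close.

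Chac1, which degrades glutathione, fell by 0.46, Asns, which makes asparagine, by 0.35, and Ddit3, which encodes the transcription factor Chop, by 0.35. Atf4, whose activity is set mainly at translation, moved little, with 507, 507 and 521 CPM in Soft+mito and 525, 533 and 544 CPM in Soft (-0.062 ± 0.020, adjusted p = 0.0157, edgeR's quasi-likelihood test). The 3 higher members were Ppp1r15a, which encodes the phosphatase subunit Gadd34 (0.69 ± 0.031), Atf3 (0.76) and the translation repressor gene Eif4ebp1 (0.096). Atf3 also counts in the AP-1 list above.

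Genes for amino acid synthesis, tRNA charging and import fell too. Of 18 tested serine and folate one-carbon enzymes of 19, 10 were lower and 0 higher (median -0.17). Aldh1l2, the mitochondrial enzyme that oxidises formyl tetrahydrofolate (chr10:83487447-83534146), had 19.2, 18.5 and 18.5 TPM in Soft+mito, against 36.5, 35.7 and 35.6 TPM in Soft, and fell by 0.84 (SE 0.031, adjusted p = 1.48e-46, edgeR's quasi-likelihood test). Mthfd2, its neighbour in the mitochondrial folate pathway, fell by 0.47, and Shmt2, the mitochondrial serine hydroxymethyltransferase, by 0.35. Cth, which makes cysteine from cystathionine, had 9.10, 8.42 and 7.53 TPM in Soft+mito and 17.7, 20.8 and 17.4 TPM in Soft, and fell by 1.06 (SE 0.087). Of the 20 cytosolic aminoacyl-tRNA synthetases, 12 were lower and 1 was higher (median -0.15), with Lars, the leucyl enzyme, at -0.34. Of 18 tested amino acid transporters of 23, 8 were lower and 1 was higher (median -0.11), with Slc7a5, the importer of large neutral amino acids, at -0.39. Slc7a11, the cystine importer, fell less, by 0.090. With length as an offset 9 one-carbon enzymes, 12 synthetases and 7 transporters were lower. The unfolded protein response list of 27 tested genes had 10 higher and 3 lower members (median 0.044).

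Promoters of the stress response genes are shown for the composite element to which Atf4 binds with a C/EBP partner, written TGATGNAAN. Of the 29 tested members with a promoter in the RefSeq table, 10 held it (34.5%), and of the 21 such genes that fell, 7 held it (33.3%), against 271 (2.78%) of the 9751 tested genes with a promoter. The share among the members that fell was thus close to that of the whole list. Capitals mark the match in 2 windows upstream of the annotated genes, both with the element on the opposite strand.
Chac1, chr2:119351033-119351071, plus strand: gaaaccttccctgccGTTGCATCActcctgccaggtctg
Pck2, chr14:55540147-55540185, plus strand: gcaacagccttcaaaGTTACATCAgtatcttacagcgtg

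The other genes with the largest fall belong to no single group. Cdsn, which encodes the cell adhesion protein corneodesmosin, had 12.2, 10.0 and 10.3 TPM in Soft+mito, against 25.2, 24.6 and 23.7 TPM in Soft (-1.08 ± 0.061, adjusted p = 2.68e-30, edgeR's quasi-likelihood test). Med12l, a subunit gene of the Mediator kinase module, had 0.59, 0.69 and 0.62 TPM in Soft+mito and 1.54, 1.75 and 1.29 TPM in Soft (-1.18 ± 0.12). Tenm4, a teneurin cell adhesion gene, fell by 0.98. Zfp866, Trim43c and Gvin2, which also fell, have close copies in the genome, so their counts are uncertain. None of the 9 lowest genes with a promoter held the cAMP response element, the AP-1 motif, the CArG box or the Egr motif, and 1, Fbxo48, held the Atf4 element.

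Glycolysis and HIF1 target genes rose by small but repeatable amounts. Of the 21 glycolysis genes, 15 were higher and 1 was lower (median 0.18). Ldha, which turns pyruvate into lactate, had 1669, 1681 and 1730 CPM in Soft+mito, against 1387, 1415 and 1409 CPM in Soft (0.27 ± 0.018, adjusted p = 3.45e-25, edgeR's quasi-likelihood test). Pgam1, the phosphoglycerate mutase, rose by 0.27 and Slc2a1, the glucose transporter, by 0.28. Of the 29 tested HIF1 targets outside glycolysis of 30, 21 were higher and 2 lower (median 0.19). Bnip3, a mitophagy receptor, had 237, 247 and 253 CPM in Soft+mito and 175, 176 and 180 CPM in Soft (0.47 ± 0.031). Pdk1, the kinase that closes pyruvate dehydrogenase, rose by 0.30 and Egln1, the oxygen sensor of HIF, by 0.26. With length as an offset, 17 glycolysis genes and 21 HIF1 targets were higher, so these counts did not shrink. One of the 2 lower HIF1 targets was Ddit4 (-0.41), an inhibitor of mTORC1, which is also a target of Atf4. Of 9 pentose phosphate genes 5 were higher and 1 was lower, or 3 to 5 and 0 to 1 with 1 library left out.

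Nuclear genes for the respiratory complexes were higher by small amounts. Of 81 tested subunit genes of complexes I to V of 83, 59 were higher and 0 lower, with a median of 0.16. By complex, 25 of 37 for complex I, 2 of 4 for complex II, 8 of 10 for complex III, 9 of 12 for complex IV and 15 of 18 for the ATP synthase were higher. Uqcr11, a small subunit of complex III, had 76.6, 75.8 and 78.2 CPM in Soft+mito, against 58.6, 66.8 and 65.4 CPM in Soft (0.27 ± 0.040, adjusted p = 2.48e-08, edgeR's quasi-likelihood test). With length as an offset it was at 0.091 (adjusted p = 0.0635) and did not pass. Atp5b, the catalytic subunit of the ATP synthase, had 1221, 1220 and 1258 CPM in Soft+mito and 1102, 1118 and 1103 CPM in Soft (0.15 ± 0.018). Cycs, which encodes cytochrome c, the carrier between complexes III and IV, had 253, 254 and 272 CPM in Soft+mito and 223, 227 and 237 CPM in Soft (0.18 ± 0.025). These groups did not overlap, as for 37.6% of all genes tested, and the differences were small.

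The respiratory subunit genes are short, with a median length of 0.15 of that of all genes, and this count shrank with length as an offset. Such an offset also takes out a rise that short genes share, and the part of length itself was not tested. With length as an offset, 20 of the 81 were higher and 0 lower, and the median was 0.037. With library totals 51 were higher, and with DESeq2 48. By TPM, the median log2 ratio of the 81 genes was 0.071, against -0.079 over all genes tested. Without Soft replicate 1, 16 complex I genes were higher. The 43 assembly factors had 3 higher and 2 lower members (median 0.046).

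The genes that copy and transcribe mitochondrial DNA did not move with the subunits. Of 26 genes for its upkeep and transcription, 1 was higher and 3 lower (median -0.043). Tfam, which packages and transcribes mitochondrial DNA, had 74.4, 80.0 and 78.3 CPM in Soft+mito and 78.6, 84.0 and 82.5 CPM in Soft, which overlap and did not pass the test. Of 78 mitochondrial ribosomal protein genes 27 were higher and 0 lower (median 0.10), with 9 higher and 2 lower once length was an offset, and 13 higher without Soft replicate 1 or 16 without Soft+mito replicate 3. Of 33 tested genes of the TCA cycle and pyruvate entry of 34, 12 were higher and 0 lower (median 0.063), among them Mdh2, the malate dehydrogenase of the matrix (0.17). Without Soft+mito replicate 3, 6 of these were higher. Fatty acid oxidation had 4 higher and 1 lower of 28 tested.

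Genes that shape, clear or supply mitochondria had some members changed. Over all genes tested 14.8% were higher and 11.9% lower, and counts close to these shares are no result about a list. Of 28 tested fusion, fission and trafficking genes of 29, 5 were higher and 0 lower (median 0.022), and 2 to 9 were higher with 1 library left out. Fis1, the fission receptor, was at 0.13, but at 0.017 with length as an offset (adjusted p = 0.807, edgeR's quasi-likelihood test), and its call was also lost with DESeq2, with library totals and without Soft+mito replicate 3, Soft replicate 1 or Soft replicate 2. Phb2, a prohibitin, was at 0.10, or 0.049 with length as an offset (adjusted p = 0.171). Of 33 tested mitophagy and autophagy genes 7 were higher and 0 lower (median 0.053), among them Bnip3 and Gabarap (0.22), which coats autophagosomes. Of 37 import genes 8 were higher and 3 lower, with the outer membrane receptor Tomm20 at 0.10 and Mtx3, a metaxin of the outer membrane, at -0.56. Of 18 mitochondrial chaperones and proteases 4 were higher and 3 lower. With 1 library left out, 1 to 4 import genes and 1 to 3 chaperones and proteases were lower. Of 38 tested Slc25 carriers, 4 were higher and 4 lower, with Slc25a27, an uncoupling protein gene (-0.67), and Slc25a37, the iron importer mitoferrin (-0.24), among the lower ones.

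**Figure D4:**
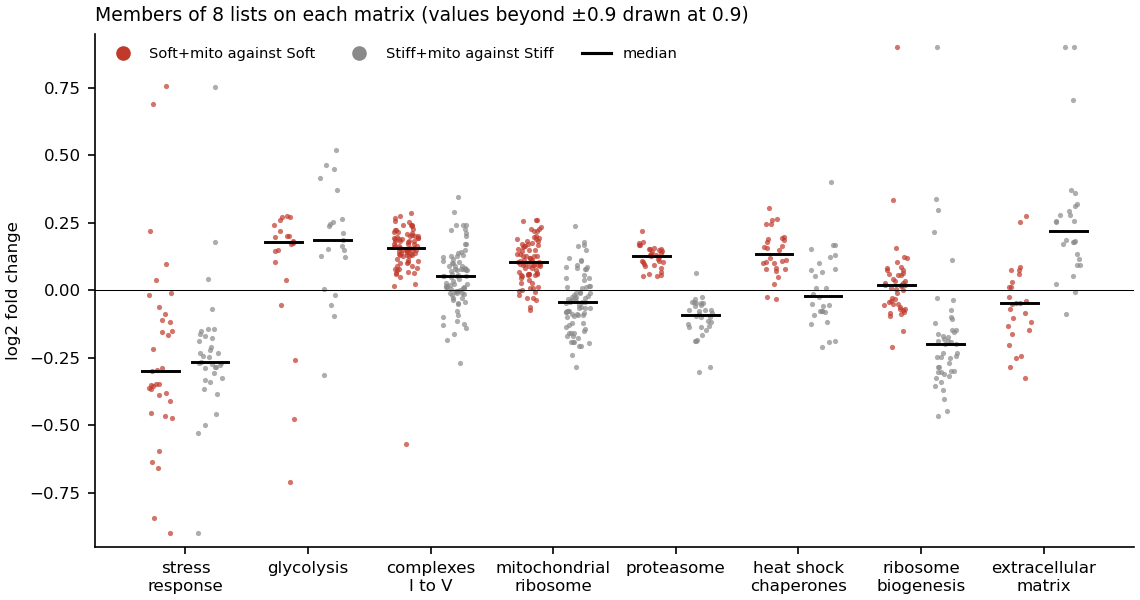
Log2 fold change of each tested member of 8 lists on the soft matrix (Soft+mito against Soft, red, left) and on the stiff matrix (Stiff+mito against Stiff, grey, right), with a black line at each median and values beyond 0.9 drawn at 0.9. The median of the stress response lies below 0 and that of glycolysis above 0 on both matrices, while the proteasome has medians of 0.13 on soft and -0.092 on stiff.

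Protein quality genes rose broadly. Of the 32 genes of the constitutive proteasome 28 were higher and 0 lower (median 0.13). Psmb3, a subunit of its catalytic core, had 192, 189 and 204 CPM in Soft+mito, against 165, 172 and 166 CPM in Soft (0.22 ± 0.027, adjusted p = 4.28e-11, edgeR's quasi-likelihood test). Of 28 tested cytosolic heat shock chaperones of 29, 23 were higher and 0 lower (median 0.13). Hspa8, the constitutive Hsp70, had 2708, 2786 and 2835 CPM in Soft+mito and 2405, 2475 and 2439 CPM in Soft (0.19 ± 0.018), and Hsp90aa1 rose by 0.18. With length as an offset, 13 proteasome genes and 22 chaperones were higher, so the chaperone count hardly moved and the proteasome count did.

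Cytosolic ribosomal proteins were higher for 69 of 82 genes and lower for 0 (median 0.16), and this list shrank with length as an offset, to 22 higher and 2 lower. Rplp0, of the ribosomal stalk, had 1809, 1847 and 1921 CPM in Soft+mito and 1638, 1682 and 1657 CPM in Soft (0.16 ± 0.018). Ribosome biogenesis genes had 6 higher and 5 lower of 45 (median 0.019).

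Part of the uptake and lysosome genes were higher, by small amounts. Of 46 tested lysosome and proton pump genes of 47, 22 were higher and 0 lower (median 0.076), and 22 were higher with length as an offset too. Lamp1, a main protein of the lysosomal membrane, had 1326, 1318 and 1336 CPM in Soft+mito, against 1192, 1205 and 1204 CPM in Soft (0.14 ± 0.018, adjusted p = 6.79e-11, edgeR's quasi-likelihood test). Several pump subunits were among the higher genes, such as Atp6v1h (0.22) and Atp6v0c (0.18). Of 59 tested endocytosis, caveolae and macropinocytosis genes, 25 were higher and 4 lower (median 0.052), with Clta, a clathrin light chain, at 0.23. With library totals the endocytosis counts were 17 higher and 5 lower, and 1 to 5 were lower with 1 library left out. Of 22 tested tunnelling nanotube and gap junction genes, 5 were higher and 3 lower (median 0.010).

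Antioxidant genes rose as well. Of 38 tested NRF2 targets and antioxidants of 39, 20 were higher and 3 lower (median 0.097), or 14 and 4 with length as an offset. Hmox1, the heme oxygenase, had 629, 631 and 643 CPM in Soft+mito, against 499, 493 and 490 CPM in Soft (0.36 ± 0.020, adjusted p = 1.99e-31, edgeR's quasi-likelihood test). Osgin1 rose by 0.47, and Nqo1, the quinone reductase, by 0.11. Of 27 tested p53 targets 9 were higher and 3 lower (median 0.041), with the cell cycle inhibitor gene Cdkn1a at 0.30 and Mdm4, an inhibitor of p53, at -0.42.

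The matrix, immune and cell cycle lists had members changed in both directions, beside 14.8% higher and 11.9% lower over all genes tested. Of 26 tested extracellular matrix genes of 37, 4 were higher and 6 lower (median -0.049), or 7 and 5 with length as an offset (median 0.0023), with fibronectin, Fn1, at -0.25 and osteopontin, Spp1, at -0.24. Of 19 tested metalloproteinases and inhibitors 5 were higher (3 to 5 with 1 library left out) and 2 lower, with the inhibitor gene Timp3 at -0.33. Of 47 tested interferon-stimulated genes, 5 were higher and 5 lower (median 0.0031), or 3 to 5 lower with 1 library left out, and of 25 nucleic acid sensing genes 2 were higher and 3 lower. Stat2, which carries the signal of the interferon receptor, fell by 0.46. Of 18 tested antigen presentation genes 5 were higher and 1 was lower. S phase and replication genes had 2 higher and 9 lower of 50 (median -0.037), and G2 and M phase genes 5 higher and 2 lower of 59 (median 0.0046).

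The remaining lists had some members changed, to be read beside the 14.8% higher and 11.9% lower of all genes tested. The TGF-beta and mesenchymal list had 9 higher and 6 lower of 26 tested genes. Vim, which encodes vimentin, had 2395, 2488 and 2546 CPM in Soft+mito and 2009, 1996 and 2012 CPM in Soft, a rise of 0.30 ± 0.019 (adjusted p = 4.05e-25, edgeR's quasi-likelihood test). Cholesterol and fatty acid synthesis had 13 higher and 4 lower of 35, and iron handling 6 higher and 1 lower of 16. With library totals these became 5 higher and 6 lower, and 2 higher and 2 lower, so neither balance held. Wnt and Notch targets had 0 higher and 2 lower of 14, and the circadian clock 1 higher and 2 lower of 15. Of 11 tested clustered histone genes 4 were higher, among them H1f2 (0.63), although poly(A) selection captures such transcripts poorly.

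Some macrophage markers, most of them at trace levels, had more counts in Soft+mito. Only 12 of the 24 macrophage markers passed the filter on low counts, which took in all 18 libraries. Most of those had few counts in the 6 libraries, so counts are given without folds. Lyz2, the macrophage lysozyme, had 62, 86 and 83 counts in Soft+mito, against 38, 39 and 51 counts in Soft. The chemokine gene Ccl3 had 8, 8 and 12 counts in Soft+mito and 1, 1 and 1 counts in Soft, and the lysosomal protease gene Ctss 6, 5 and 12 counts in Soft+mito and 2, 2 and 1 in Soft. Other markers did not show more counts in Soft+mito, such as the mannose receptor gene Mrc1, with 4, 2 and 5 counts in Soft+mito and 5, 7 and 5 in Soft, and the Fc receptor gene Fcgr1, with 2, 3 and 2 counts in Soft+mito and 2, 5 and 7 in Soft. Cd14, a receptor for bacterial lipopolysaccharide, was not at a trace level, with 460, 464 and 519 counts in Soft+mito and 362, 386 and 398 in Soft. Without Cd14, Lyz2 and Cd68 the macrophage markers summed to 7.67 to 9.63 TPM in Soft+mito and 2.5 to 4.29 TPM in Soft. The same sum was 4.44 to 6.16 TPM in Stiff+mito and 2.62 to 4.87 TPM in Stiff. The neural growth regulator Mycn had 11, 11 and 11 counts in Soft+mito and 0, 0 and 0 in Soft. A gene that passes the filter only through the group where it is high has to differ, so no fold is given for Mycn either. The part of these transcripts in the other results was not tested.

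The response on soft was then set beside the response on stiff, Stiff+mito against Stiff, which shares no library with it. On stiff, 4099 genes (33.5%) changed, with 1915 (15.6%) higher and 2184 (17.8%) lower. The difference of both responses (soft minus stiff) passed the test for 2889 genes (23.6%), positive for 1611 (13.2%) and negative for 1278 (10.4%). The early genes were higher on both matrices: of the 33 Egr, Klf, Nr4a and Ier genes 27 were higher on stiff, and of the 11 AP-1 subunits 9. Fos rose by the larger fold on soft, 5.56 against 3.94 on stiff, a difference of 1.62 ± 0.11 (adjusted p = 4.77e-23, edgeR's quasi-likelihood test). Its mean level was lower on soft both with and without the addition, at 2.87 TPM in Soft and 128 TPM in Soft+mito. On the stiff matrix it was 15.9 TPM in Stiff and 243 TPM in Stiff+mito. Of the 33 Egr, Klf, Nr4a and Ier genes the difference was negative for 11 and positive for 3. Klf2 rose by 2.53 on soft and 3.49 on stiff (difference -0.96 ± 0.23), Jun by 1.15 and 1.81 (-0.67 ± 0.045), and Zfp36 by 1.04 and 1.84 (-0.81 ± 0.094). Ccn1 rose by 2.19 on soft and 2.12 on stiff, and this difference did not pass the test (0.064 ± 0.040, adjusted p = 0.261). For Ptgs2 too the difference did not pass (0.013 ± 0.028, adjusted p = 0.783).

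**Figure D5:**
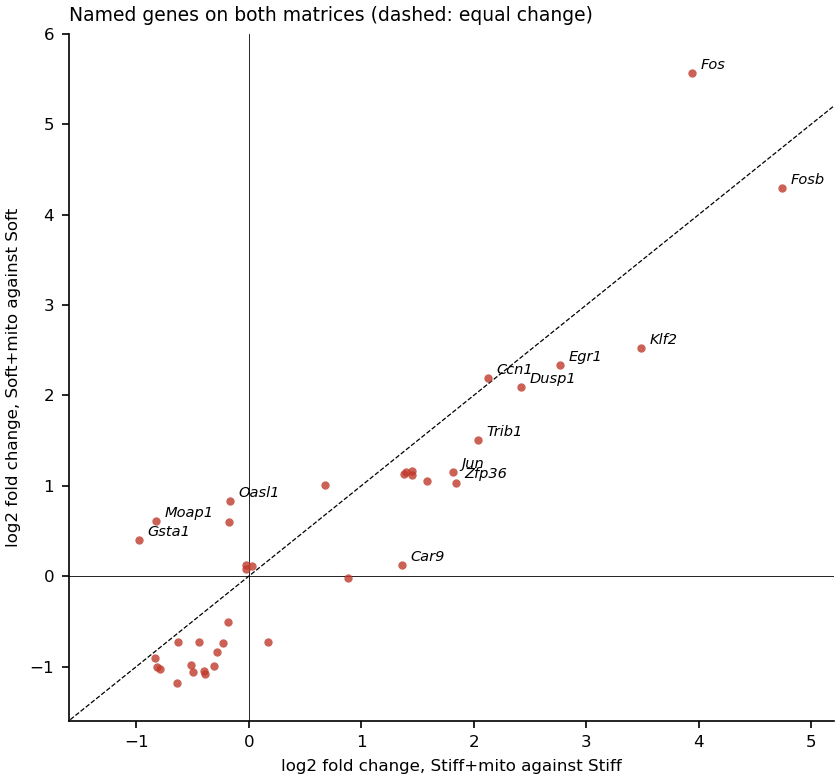
Log2 fold change on soft (Soft+mito against Soft) and on stiff (Stiff+mito against Stiff) of the genes named by their size of change or of difference, with a dashed line where both are equal. Fos lies on the soft side of the line by 1.62, Ccn1 lies close to it, and Klf2 and Car9 lie on the stiff side.

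Some genes answered on soft with no call on stiff. Ppp1r15a rose by 0.69 on soft and had 0.043 on stiff, a difference of 0.65 ± 0.042 (adjusted p = 9.60e-25, edgeR's quasi-likelihood test). Cxcl1 rose by 0.84 on soft and had 0.069 on stiff, a difference of 0.77 ± 0.064. Gadd45b, a stress gene that activates p38, rose by 0.60 on soft and had -0.18 on stiff (0.78 ± 0.11). Car9, the carbonic anhydrase induced by HIF1, had the larger response on stiff, with 0.12 on soft and 1.36 on stiff (-1.24 ± 0.065). Its call on soft was lost without Soft replicate 1 (adjusted p = 0.210) and without Soft+mito replicate 1 (0.108) or 3 (0.0955). It was also lost with library totals (0.131), DESeq2 (0.0999), a length offset (0.0938), no low-count filter (0.0666) and only the compared groups (0.0860).

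The stress response fell on both matrices, with 29 of 35 members lower on stiff and a median of -0.27, and the difference was positive for 10 and negative for 12. Within it, Ddit3 fell by 0.35 on soft against a fall by 0.90 on stiff, Atf4 by 0.062 against 0.33, and Slc7a11 by 0.090 against 0.53. Aldh1l2 went the other way, at -0.84 on soft and -0.29 on stiff, a difference of -0.56 ± 0.038 (adjusted p = 6.66e-24, edgeR's quasi-likelihood test). Cth showed the same order, with -1.06 on soft, -0.50 on stiff and a difference of -0.56 ± 0.10. Glycolysis had 15 higher members on stiff as well, and HIF1 targets 20.

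Lists of protein turnover differed between the matrices in many members. Of the 32 proteasome genes 0 were higher and 20 lower on stiff (median -0.092), and the difference was positive for 30 and negative for 0, against 13.2% and 10.4% of all genes. Ribosome biogenesis had 4 higher and 37 lower genes on stiff (median -0.20), with a positive difference for 34 of 45. Of the heat shock chaperones 7 were higher and 12 lower on stiff, with a positive difference for 20 of 28 and a negative one for 1. Psmb3 was at 0.22 on soft and -0.18 on stiff (difference 0.40 ± 0.039, adjusted p = 8.37e-15, edgeR's quasi-likelihood test). The proteasome genes have a median length of 0.39 of that of all genes. With a length offset 2891 differences passed the test over all genes, of which 2427 were shared with the 2889. Members of these lists were not counted in that fit, and the part of length in them was not tested.

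Respiratory subunit and mitochondrial ribosomal protein genes also had more positive than negative differences. Of the 81 respiratory subunits 18 were higher and 8 lower on stiff (median 0.051), and the difference was positive for 24 and negative for 1. Of the 78 mitochondrial ribosomal proteins 1 was higher and 16 lower on stiff (median -0.043), with a positive difference for 25 and a negative one for 0. Other mitochondrial lists varied, beside 13.2% positive over all genes tested. The difference was positive for 10 of 37 import genes, 3 of 43 assembly factors and 1 of 26 genes for upkeep and transcription of mitochondrial DNA. Cycs was at 0.18 on soft and -0.19 on stiff, a difference of 0.37 ± 0.036 (adjusted p = 8.51e-15, edgeR's quasi-likelihood test). Extracellular matrix genes went the other way, with a negative difference for 16 of 26 and a positive one for 1. On stiff, 19 of these matrix genes were higher and 1 lower (median 0.22). Fn1 was at -0.25 on soft and 0.17 on stiff, Timp3 at -0.33 and 0.21, and Thbs1, the thrombospondin gene, at 0.27 and 1.02, each with a difference that passed the test. Median lengths were 0.15 of that of all genes for the respiratory subunits, 0.29 for the mitochondrial ribosomal proteins and 2.13 for the matrix genes. Length moved with the change on soft (Spearman -0.33) and hardly on stiff (-0.045). Differences of these list members were not counted with a length offset, and the part of length in them was not tested.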

How the data were processed

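RNA was extracted with TRIzol, selected for poly(A) and sequenced from both ends in strand-specific libraries, per the labels' protocols. The genome build was mm10, per the submitters' processing notes. The sources used here name no aligner or quantifier. Per gene and sample, the authors deposited estimated counts, of which 10.9% were not whole (tolerance 0.001), so reads had been divided between features. The same deposited table holds TPM, which the authors computed. The transcript table was read for Fosb only, and 80 value columns of each table were not used.

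After rounding, the estimated counts went through edgeR 4.0.16 (R 4.3.3): filterByExpr with a minimum count of 10, TMM scaling and 1 quasi-likelihood fit of group means over all 18 libraries, so that all groups share the estimate of the spread (common biological coefficient of variation 0.0175). F-tests were two-sided, and p-values were adjusted by Benjamini-Hochberg over all 12245 genes, with 0.05 as the threshold. Standard errors were taken as the absolute log2 fold change over the root of the F statistic. Because the spread is small, small changes pass. Replicate libraries differed by more than counting error, with a chi-square per degree of freedom of 1.21 to 2.27, so none was counted as a copy of another. In simulated data of this design (12111 genes), 70%, 74%, 98% and 100% of 50 genes with folds of 1.15, 1.25, 1.5 and 2 were called, with 8 false calls among 11911 unchanged genes. The genes given a fold all averaged at least 50 counts, so these rates do not cover genes with fewer. The alternatives were library totals, DESeq2 size factors, DESeq2 1.42.0, other filters, only the compared groups, a replicate block, each library left out, and a length offset, which was added after seeing the data. That offset was a smooth curve of each library's deviations on length (counts over TPM), fitted to the same genes.

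The members, the 62 gene lists (55 of pathways, 7 of cell type markers, 16 symbols without a row in the table) and the rule for named genes were chosen with earlier results of these data known. The rule took 15 genes up and 15 down by size of change with at least 5 CPM and no overlap between the groups, up to 5 members per list with the smallest adjusted p, Ddr2, Ptk2, Tiam1, Rhoa and Rac1, members that define a list, and 5 genes each way of largest difference between soft and stiff. Some genes under this rule and 1 list are not reported here. Other genes named were chosen after their values were seen. Gene identifiers were matched to RefSeq GRCm38.p6 for 18257 genes (99.2%). Lists are described by counts and medians, with no set test.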

Additional observations from a re-analysis of the deposited data

Results flagged for a closer look

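The response to mito differed between the soft and the stiff matrix for 2889 genes (edgeR's quasi-likelihood test of the difference, adjusted p under 0.05), which is the pattern that was marked for a closer look. By the rule for named genes, the largest positive differences (log2, soft minus stiff) were those of Fos (1.62), Moap1, a gene of apoptosis (1.43), Gsta1, a glutathione transferase (1.37), Oasl1, an interferon-stimulated gene (0.99), and Gadd45b (0.78). Among the largest negative ones were those of Car9 (-1.24), Klf2 (-0.96), Oas3, an interferon-stimulated synthetase (-0.90), and Pbld2 (-0.89).

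Moap1 had 9.80, 9.16 and 6.78 CPM in Soft+mito and 4.98, 6.37 and 5.52 CPM in Soft. These groups do not overlap, but Moap1 did not pass the test on soft, and its difference between the matrices has an SE of 0.47 (adjusted p = 0.0436). Gsta1 moved in opposite directions, by 0.40 on soft and by -0.98 on stiff. Oas3 did not pass the test on soft (-0.015) and was at 0.89 on stiff, while Oasl1 was at 0.83 on soft and did not pass on stiff (-0.16). With 3 libraries a group, no test for a library standing apart was made.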

How the results depend on the processing

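The 3273 changed genes became 2106 with DESeq2, of which 2098 were shared, 2577 to 3038 with each library left out, 3241 with library totals and 2895 with a length offset (2329 shared). The 71 genes of at least 2-fold became 25 with at least 50 counts on average, 43 with only the groups of the comparison, 34 with DESeq2 and 73 to 87 with each library left out; 19 of the higher and 24 of the lower average under 20 counts. The 2889 differences between the matrices became 1801 with DESeq2, 2455 to 2932 with each library left out and 2891 with a length offset (2427 shared).

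Same-numbered libraries did not deviate together (correlations 0.0068, -0.012 and 0.043), so the values gave no sign of pairs. Such a check cannot exclude that same-numbered libraries were handled together. With the replicate block 3354, 73 and 2961 genes were called, and no named gene changed its call. Of 289 named genes, 14 lost their call with library totals, 24 with DESeq2, 8 to 24 with 1 library left out and 43 with a length offset, and 0 changed direction with library totals. With a length offset 3 changed direction: Atp5j2, a subunit of the ATP synthase (-0.0052, adjusted p = 0.931), Fth1, ferritin heavy chain (-0.040, adjusted p = 0.0428), and S100a4 (-0.0097, adjusted p = 0.866), each higher in Soft+mito before. The cause was not tested. With 1 library left out, 7 to 10 cholesterol and fatty acid synthesis genes were higher (13 with all libraries), 5 to 9 S phase genes lower (9) and 3 to 6 ribosome biogenesis genes higher (6).

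Changes of under about 20% rest on the small spread between libraries whose independence the labels do not state. Genes with few counts, Tiam1 and the macrophage markers among them, are limited by depth.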
